A study of Mus musculus with 9 samples.

Results

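Transcripts of the cell cycle and of DNA replication were followed in the ventricles of mice with an enlarged heart, a small heart or a normal heart. The 71 genes are those whose array symbol names a cyclin A, B, D or E, a cyclin-dependent kinase, a licensing or minichromosome maintenance (Mcm) protein, an E2F or retinoblastoma protein, a replicative polymerase subunit, a clamp loader, or one of a few mitotic and nucleotide supply proteins. They are 71 of 8251 genes with a single symbol on the array and have 98 probe sets. Each gene is represented by its brightest probe set over the 9 arrays. The rule uses symbols and brightness only, but it was set with earlier results of these data known.

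Total RNA from ventricle only was hybridised to 9 arrays, 1 per animal, with 3 animals in each of 3 groups. caPI3K mice were transgenic for a constitutively active phosphoinositide 3-kinase (PI3K), the lipid kinase that acts below the insulin and insulin-like growth factor receptors, and per the labels their hearts were 20% larger than in wild type littermates. dnPI3K mice were transgenic for dominant-negative PI3K and had hearts 17% smaller than littermates. NTG mice were non-transgenic and serve as the control of both transgenic groups. Strain, age, sex, PI3K isoform and the promoter of the transgenes are not given in the sources used here, so which heart cells carried the transgene is not known here. Animal numbers of caPI3K and NTG mice interleave, whereas those of dnPI3K mice form a lower series of their own, so for dnPI3K the series and the transgene cannot be told apart.

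In dividing cells, D cyclins with Cdk4 or Cdk6 phosphorylate the retinoblastoma protein, which releases E2F factors to switch on genes of DNA replication. Origins are licensed by the origin recognition complex, Cdc6 and the Mcm helicase, copied by polymerases alpha, delta and epsilon on the sliding clamp Pcna, and the copies are separated under cyclin B, Cdk1, Aurora and Polo kinases. Heart muscle cells of mice largely leave this cycle soon after birth and then grow mainly by enlargement, while fibroblasts, endothelial cells and leukocytes of the ventricle can still divide. The comparison asks whether hearts that differ in size also differ in transcripts of division.

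All 9 genes listed as cardiomyocyte markers lay above the floor on every array, but this list does not tell ventricle from atrium. Sums of 3 atrial markers ran from 974.2 to 9907 in caPI3K, from 101.3 to 270 in dnPI3K and from 565.3 to 14180 in NTG. The floor is the 20th percentile of the normalized intensities, 35.34 in arbitrary units, and values below it are dim. Array medians before normalization lay between 174.8 and 194. The geometric mean of the spiked control transcripts was 500.9 ± 67 (SD, n = 3) in caPI3K, 327 ± 51.4 in dnPI3K and 503.7 ± 72.6 in NTG. The probe set for the 3′ end of 18S ribosomal RNA read 519.6 ± 38.1, 6224 ± 2700 and 536.1 ± 118 in the same order. The dnPI3K arrays therefore stood apart in control signals, and the part of this in the dnPI3K results was not tested.

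Promoters are shown for 3 members, because E2F sites before the start are the textbook link between the retinoblastoma protein and replication genes. The 250 bases before the transcription start are from RefSeq, mouse build GRCm38.p6. Pola1, the catalytic subunit of polymerase alpha, lies at chrX:93632156-93632405 on the minus strand. Mcm5, a subunit of the replicative helicase, lies at chr8:75109259-75109508 on the plus strand. Cdk1, the mitotic kinase, lies at chr10:69352913-69353162 on the minus strand. Capitals mark the letters of 3 motifs on either strand. They are the E2F letters TTTCCCGC, TTTCGCGC, TTTGCCGC and TTTGGCGC, the cell cycle homology region (CHR) TTTGAA, and the CCAAT box.
Pola1: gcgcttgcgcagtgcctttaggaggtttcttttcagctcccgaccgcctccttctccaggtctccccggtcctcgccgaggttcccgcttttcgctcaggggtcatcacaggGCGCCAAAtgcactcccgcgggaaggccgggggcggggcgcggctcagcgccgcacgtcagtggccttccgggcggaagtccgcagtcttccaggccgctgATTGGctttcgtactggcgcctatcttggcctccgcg
Mcm5: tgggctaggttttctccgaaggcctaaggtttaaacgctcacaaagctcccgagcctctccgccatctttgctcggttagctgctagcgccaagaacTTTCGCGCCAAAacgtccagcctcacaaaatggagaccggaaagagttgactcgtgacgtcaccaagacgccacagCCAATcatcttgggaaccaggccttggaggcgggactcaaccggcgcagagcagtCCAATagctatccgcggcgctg
Cdk1: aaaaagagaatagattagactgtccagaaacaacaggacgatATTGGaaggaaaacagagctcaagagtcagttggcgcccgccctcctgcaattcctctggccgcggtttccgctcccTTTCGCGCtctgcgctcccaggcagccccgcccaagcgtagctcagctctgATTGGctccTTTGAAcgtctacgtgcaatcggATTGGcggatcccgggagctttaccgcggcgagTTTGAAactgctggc
Pola1 had 1 E2F match and 1 CCAAT match. Mcm5 had 2 E2F matches that overlap each other, one on each strand, and 2 CCAAT matches. Cdk1 had 1 E2F match, 2 CHR matches and 3 CCAAT matches.

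Over all members, the RefSeq table held 71 promoters of 60 of the 71 genes. The E2F letters were found in 14 of these 71 promoters (19.7%), against 611 of 32851 promoters in the table (1.86%). The CHR letters were found in 15 (21.1%) against 16.0% of all, and the CCAAT letters in 39 (54.9%) against 33.8%. Genes with the E2F letters were Cdc25a, Cdc6, Cdk1, Cdk2, E2f3, Mcm5, Mcm6, Mcm7, Orc1, Pola1, Pole4, Rbl1 and Rfc3, of which 12 were tested for expression. A match describes these letters and is not a binding site.

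**Figure D1:**
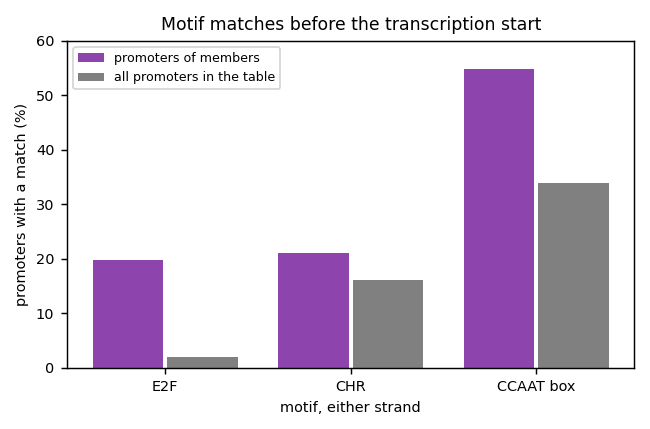
Share of promoters (percent, 250 bases before the start) that hold each motif on either strand, for the promoters of the members and for all promoters in the RefSeq table. The E2F letters were in 19.7% of member promoters against 1.86% of all, while the CHR shares were 21.1% and 16.0%.

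Of the 71 genes, 65 could be tested, since the rule asked for 3 or more of the 9 arrays above the floor. Top2a, the topoisomerase that untangles chromosomes in dividing cells, lay below the floor on all 9 arrays, between 12.29 and 32.54. The other untested genes were Ccne2, Ccna1, Mcm6, Mcm10 and Pole2, each above the floor on only 1 or 2 arrays. Another 11 genes were above it on 3 to 8 arrays, among them E2f1, Cdk1, Aurka, Bub1 and Cdc7, and 54 were above it on all 9. A difference measured near the floor understates the change and depends on the floor. In total RNA of a whole ventricle, fewer cells of a type and less RNA per cell cannot be told apart.

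None of the 65 members passed the test in any comparison. The test was limma's moderated test with Benjamini-Hochberg adjustment over all 10645 probe sets, two-sided, with an adjusted p under 0.05 required. The count was 0 in caPI3K against NTG, beside 0.0845% of all probe sets. For dnPI3K against NTG it was 0 beside 2.18%, and in caPI3K against dnPI3K 0 passed beside 3.24%. The test for any difference between the 3 groups also called 0 members, beside 2.63% of all probe sets. The shares of all probe sets are so small that a count of 0 among 65 members sets them little apart from the rest of the array.

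Counts at an unadjusted p under 0.05 in limma's test were near or below the background. They were 5 of 65 members (7.69%) in caPI3K against NTG, beside 6.9% of all probe sets, and 7 (10.8%) in dnPI3K against NTG, beside 14.8%. In caPI3K against dnPI3K they were 7 (10.8%), beside 16.4%. The median log2 difference of the members was -0.01 in caPI3K against NTG, 0.06 in dnPI3K against NTG and -0.01 in caPI3K against dnPI3K, while over all probe sets each median was 0.00. The number of members above 0 was 31, 37 and 31 of 65 in the same order. Members were thus spread around 0 much like the array as a whole, with the farthest shift in dnPI3K against NTG.

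How large a change could have been missed is shown by the 95% confidence intervals of single genes. For caPI3K against NTG the interval lay within a 2-fold change in either direction for 41 of 65 members and within 1.5-fold for 20. For dnPI3K against NTG these numbers were 41 and 17, and in caPI3K against dnPI3K 38 and 20. For the other members a 2-fold change lies inside the interval or at its edge, in 24, 24 and 27 genes. The median standard error (SE) of a member was 0.27 on the log2 scale, close to 0.25 over all probe sets. With 3 arrays a group, a change smaller than this precision was not detectable.

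**Figure D2:**
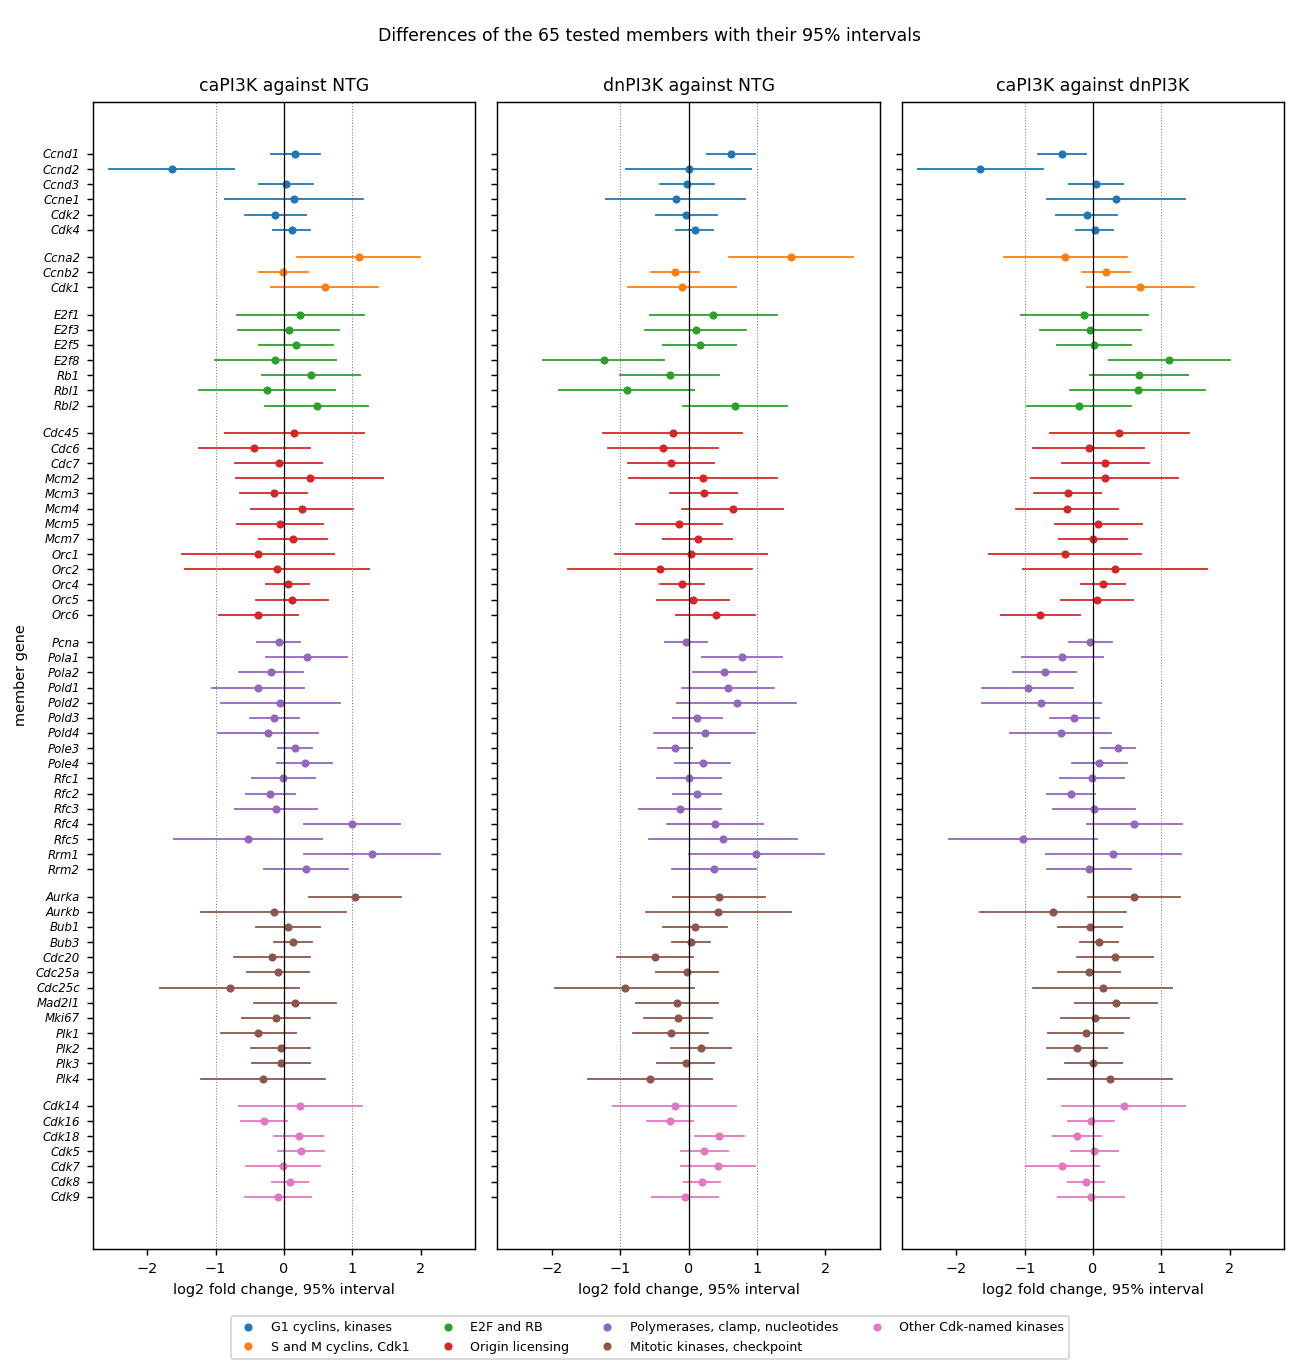
Log2 fold change (x axis) of the 65 tested members in the 3 comparisons, with 95% confidence intervals as lines, grouped by role, and dotted lines at a 2-fold change. Most intervals cross 0, and Ccnd2 lies farthest to the left in both comparisons of caPI3K.

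**Figure D3:**
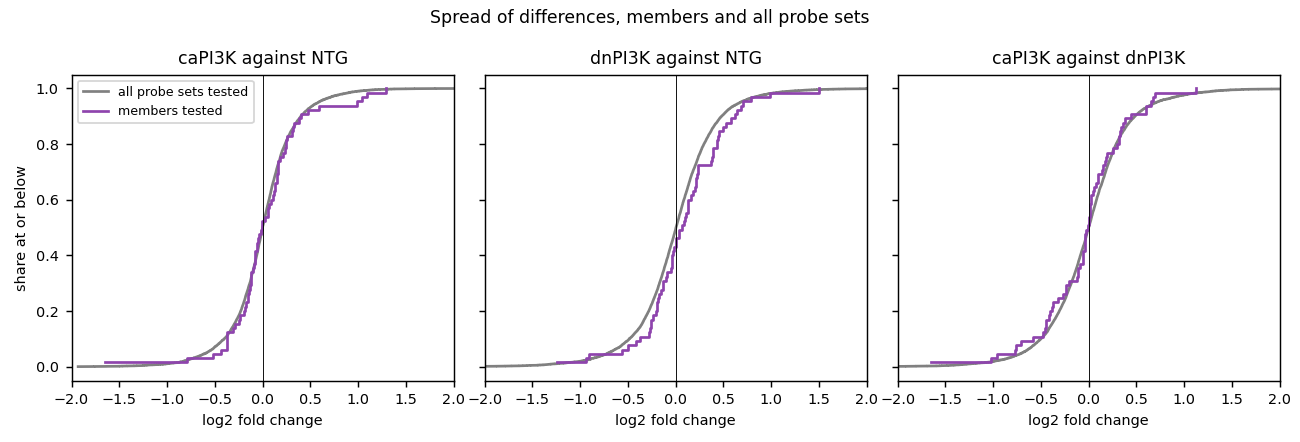
Cumulative share (y axis) of members and of all probe sets at or below each log2 fold change (x axis) in the 3 comparisons. The member curves follow those of all probe sets in both comparisons of caPI3K (medians -0.01) and lie to their right over most of the range in dnPI3K against NTG (median 0.06). The x axis is limited to 2 on either side, so larger differences of other probe sets are outside it.

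The D cyclins, which pass growth factor signals to Cdk4, held the largest difference among the members between caPI3K and both other groups. Ccnd2, cyclin D2, read 142.4, 42.41 and 62.8 in the 3 caPI3K hearts, 278.8, 214.6 and 195.2 in the dnPI3K hearts and 287.8, 225.2 and 179.3 in the NTG hearts. Each caPI3K heart lay below each heart of both other groups, while dnPI3K and NTG overlapped. The log2 difference of caPI3K from NTG was -1.65 ± 0.413 (SE, 95% interval -2.56 to -0.73, limma adjusted p = 0.358). The gene has a single probe set here. Within the 2800 series of animal numbers the log2 difference was -1.71 (2 animals a group), and within the 3100 series, with 1 animal a group, it was -1.51.

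Against dnPI3K, the log2 difference of Ccnd2 in caPI3K was also -1.65 (interval -2.56 to -0.74, limma adjusted p = 0.0601). This is the smallest adjusted p of any member in the 3 pairwise comparisons. Without caPI3K replicate 1, the brightest of the 3, the limma adjusted p was 0.014, and over all alternatives it ran from 0.014 to 0.175. In dnPI3K against NTG the log2 difference was 0.00 (interval -0.91 to 0.91), so no difference in cyclin D2 was detectable in the small hearts, but a 1.5-fold change in either direction lies inside the interval.

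Ccnd1, cyclin D1, had another pattern. It read 631.1, 638.5 and 703.4 in caPI3K, 963, 933.8 and 814.1 in dnPI3K and 549.8, 488.2 and 749.7 in NTG. All dnPI3K hearts lay above all hearts of both other groups, while caPI3K and NTG overlapped. The log2 difference of dnPI3K from NTG was 0.62 ± 0.161 (SE, interval 0.26 to 0.98, limma adjusted p = 0.0871), the smallest of the members in this comparison. Without NTG replicate 3, the brightest NTG heart, the limma adjusted p was 0.0196, within a range of 0.0196 to 0.2345 over all alternatives. The log2 difference of caPI3K from dnPI3K was -0.46 (limma adjusted p = 0.174) and that of caPI3K from NTG 0.16 ± 0.161 (SE).

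A further probe set of Ccnd1 read 176.6, 268.7 and 223.3 in caPI3K, 344.7, 343 and 459.8 in dnPI3K and 270, 236.5 and 133 in NTG. Here too the dnPI3K hearts lay above all others. Its log2 difference was 0.89 ± 0.293 (SE, limma adjusted p = 0.176) in dnPI3K against NTG and -0.79 (limma adjusted p = 0.198) in caPI3K against dnPI3K. With the mean of both probe sets as the value of the gene, the limma adjusted p in dnPI3K against NTG was 0.0285.

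The other tested G1 members overlapped between all groups. Ccnd3, cyclin D3, had log2 differences of 0.03 in caPI3K and -0.02 in dnPI3K, both against NTG. Cdk4, the partner kinase of the D cyclins, read 1941, 2138 and 1966 in caPI3K, 1753, 2375 and 1868 in dnPI3K and 2074, 1823 and 1713 in NTG. Its log2 difference was 0.11 ± 0.124 (SE, interval -0.16 to 0.39) in caPI3K and 0.09 (interval -0.19 to 0.36) in dnPI3K, so for Cdk4 a change of 1.5-fold lies outside both intervals. Cdk2, which works with cyclins E and A, had log2 differences of -0.13 (interval -0.57 to 0.32) in caPI3K and -0.03 in dnPI3K. Ccne1, cyclin E1, varied between 161.4 and 503.6 within the caPI3K group alone, and its interval against NTG ran from -0.86 to 1.16.

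**Figure D4:**
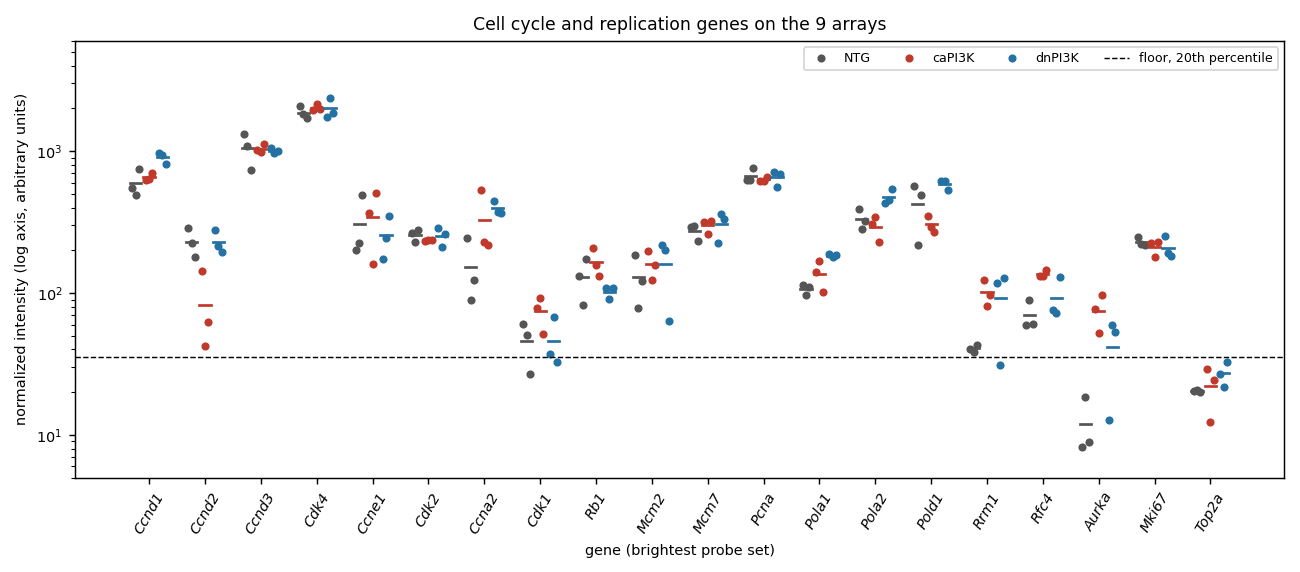
Normalized intensity (log axis, arbitrary units) of 20 members on each of the 9 arrays, with a point per heart, a short line at the group mean and a dashed line at the floor of 35.34. The caPI3K hearts are lowest for Ccnd2, the dnPI3K hearts highest for Ccnd1, and Top2a lies under the floor throughout. Levels of different genes come from different probes and do not compare.

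Among the S phase and mitotic cyclins, Ccna2 stood highest above NTG in dnPI3K. Cyclin A2 drives S phase and entry into mitosis with Cdk2 and Cdk1. It read 530.8, 227.1 and 217.2 in caPI3K, 444.5, 372.6 and 366.8 in dnPI3K and 243.1, 88.97 and 124.1 in NTG. The dnPI3K hearts lay above all NTG hearts, whereas the caPI3K and NTG hearts overlapped. The log2 difference was 1.5 ± 0.409 (SE, interval 0.60 to 2.40, limma adjusted p = 0.0993) in dnPI3K and 1.10 ± 0.409 (interval 0.19 to 2, limma adjusted p = 0.628) in caPI3K. Both comparisons use the same NTG hearts, of which replicate 1 was the highest. Without it, the limma adjusted p in dnPI3K was 0.0452, the lowest over the alternatives, whose highest was 0.263.

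Ccnb2, cyclin B2, read 635.4, 547 and 479.4 in caPI3K, 497.8, 483.6 and 467.6 in dnPI3K and 670, 500.4 and 506.2 in NTG. The dnPI3K hearts were just below all NTG hearts, with a log2 difference of -0.20 (interval -0.55 to 0.16). Cdk1, the kinase that these cyclins activate, was near the floor, with 78.84, 92.32 and 51.51 in caPI3K, 37.03, 67.78 and 32.54 in dnPI3K and 60.88, 50.54 and 27.09 in NTG. Its log2 difference in caPI3K against NTG was 0.60 (interval -0.19 to 1.38), and the groups overlapped.

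The E2F and retinoblastoma genes gave no member past the test, and their lowest unadjusted p came from E2f8. E2F8 is an atypical E2F that represses other E2F targets. It read 185.4, 101.2 and 97.69 in caPI3K, 36.38, 49.15 and 100.2 in dnPI3K and 143, 127.3 and 130.4 in NTG. The log2 difference in dnPI3K against NTG was -1.24 ± 0.403 (SE, limma adjusted p = 0.17), and the groups did not overlap. Over the alternatives this difference ran from -1.65 to -0.24, with limma adjusted p from 0.0783 to 0.564. A further probe set gave -0.91 (limma adjusted p = 0.256), also without overlap. In caPI3K against dnPI3K the log2 difference was 1.12 with the first probe set and 0.18 with the further one.

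Rb1, the retinoblastoma protein, read 208.3, 157.9 and 131.4 in caPI3K, 107.7, 91.44 and 107.7 in dnPI3K and 131.7, 82.73 and 173.1 in NTG. The caPI3K hearts lay above all dnPI3K hearts (log2 difference 0.68, interval -0.05 to 1.40, limma adjusted p = 0.337), and both groups overlapped with NTG. A further probe set of Rb1 gave 0.14 in this comparison, with overlapping groups. The relatives Rbl1 and Rbl2 had log2 differences of -0.90 (limma adjusted p = 0.386) and 0.68 (limma adjusted p = 0.395) in dnPI3K against NTG. E2f1, the E2F most closely tied to S phase entry, was on the floor on 5 of 9 arrays, with an interval from -0.69 to 1.17 in caPI3K against NTG.

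Licensing genes, 13 tested of 15, gave no consistent side. Their median log2 difference was -0.06 in caPI3K against NTG, with 6 of 13 above 0, and 0.04 in dnPI3K against NTG, with 7 of 13 above 0. The Mcm helicase subunits are among the most widely used marks of cells that can replicate. The log2 differences of caPI3K from NTG were 0.38 for Mcm2, -0.15 for Mcm3, 0.26 for Mcm4, -0.06 for Mcm5 and 0.13 for Mcm7. Those of dnPI3K from NTG were 0.21, 0.22, 0.65, -0.14 and 0.13 in the same order. Mcm6 was below the floor on 8 arrays.

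Mcm7 and Mcm5 show the spread between hearts and between probe sets. Mcm7, a subunit of the helicase ring, read 317.6, 260.5 and 321.4 in caPI3K, 223.9, 357.9 and 332.9 in dnPI3K and 293.5, 298.5 and 230.9 in NTG, so the groups overlapped throughout, and its interval in caPI3K against NTG was -0.37 to 0.63. For Mcm5, a further probe set read 104, 80.29 and 86.99 in caPI3K and 240.8, 259.7 and 92.03 in NTG, a log2 difference of -1 (limma adjusted p = 0.7) that the brightest probe set did not share. Orc6, a subunit of the origin recognition complex, read 185, 132.1 and 134 in caPI3K, 291.4, 245.8 and 226.5 in dnPI3K and 188.4, 247.2 and 153.1 in NTG. It was lower in every caPI3K heart than in any dnPI3K heart (log2 difference -0.77 ± 0.263 SE, limma adjusted p = 0.159).

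The polymerase, clamp, clamp loader and nucleotide supply genes leaned toward higher values in dnPI3K. Of 16 tested, 13 had a log2 difference above 0 in dnPI3K against NTG, with a median of 0.31 beside 0.00 over all probe sets, and none passed the test. The median ran from 0.13 to 0.39 over the alternatives, and under both other scalings it stayed above 0 (0.21 and 0.29). In caPI3K against NTG, 6 of 16 were above 0 with a median of -0.07, and in caPI3K against dnPI3K 5 of 16 with a median of -0.16. The comparisons share hearts, so these medians are not independent of each other.

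Subunits of polymerases alpha and delta were among the lowest p of this group in the comparisons with dnPI3K. Pola1 read 141.7, 168.2 and 101.4 in caPI3K, 187.1, 179 and 183.9 in dnPI3K and 113.1, 96.29 and 110.9 in NTG. The dnPI3K hearts lay above all others, with a log2 difference of 0.78 ± 0.267 (SE, interval 0.19 to 1.37, limma adjusted p = 0.193) from NTG. With the floor at the 40th percentile, where 52 members were tested, its limma adjusted p was 0.0435, within 0.0435 to 0.354 over the alternatives.

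Pola2, the regulatory subunit of polymerase alpha, read 308.4, 343.7 and 227.5 in caPI3K, 429.2, 453.2 and 543.1 in dnPI3K and 394.2, 280.8 and 322.6 in NTG. The dnPI3K hearts were again above all others. The log2 difference was 0.52 (limma adjusted p = 0.273) in dnPI3K against NTG and -0.71 ± 0.210 (SE, limma adjusted p = 0.107) in caPI3K against dnPI3K. A further probe set of Pola2 gave 0.91 and 0.10, so it shared the first difference in sign and not the second. Between caPI3K and NTG it gave 1 (limma adjusted p = 0.691) where the brightest gave -0.19.

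Pold1, the catalytic subunit of polymerase delta, read 350.3, 293.9 and 270.2 in caPI3K, 617.7, 615 and 534.8 in dnPI3K and 565.2, 219 and 493.1 in NTG. caPI3K lay below dnPI3K without overlap, and NTG overlapped with both. The log2 difference of caPI3K from dnPI3K was -0.96 ± 0.303 (SE, limma adjusted p = 0.129). Without NTG replicate 2, which enters through the shared spread, the limma adjusted p was 0.0131, and the range over the alternatives was 0.0131 to 0.2925. A further probe set of Pold1 gave a log2 difference of -0.09. Pole3, a small histone-fold subunit of polymerase epsilon, differed the other way, with 1198, 1199 and 1013 in caPI3K and 877.7, 854.6 and 921.2 in dnPI3K (log2 difference 0.36 ± 0.113 SE, limma adjusted p = 0.126). A further probe set of Pole3 gave -0.03 with overlapping groups, so this sign was not shared.

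Pcna, the sliding clamp that encircles DNA at the replication fork, had a smaller SE than the typical member. It read 616, 620.8 and 658.5 in caPI3K, 712.2, 557.6 and 686.5 in dnPI3K and 622.4, 625.1 and 764.1 in NTG. The groups overlapped, and the log2 difference was -0.08 ± 0.140 (SE, interval -0.39 to 0.23) in caPI3K and -0.04 (interval -0.35 to 0.27) in dnPI3K against NTG. Both intervals leave out a 1.5-fold change.

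Rfc4 and Rrm1 read higher in caPI3K than in NTG. Rfc4, a subunit of the loader that places Pcna on DNA, read 132.5, 131.6 and 144.2 in caPI3K, 75.59, 72.41 and 130.6 in dnPI3K and 59.74, 88.97 and 60.06 in NTG. All caPI3K hearts lay above all others, with a log2 difference of 0.99 ± 0.316 (SE, limma adjusted p = 0.513) from NTG and, within the animal number series, 0.86 and 1.26. Rrm1, the large subunit of ribonucleotide reductase, read 123.9, 81.56 and 97.22 in caPI3K, 117, 31.09 and 128.2 in dnPI3K and 40.61, 38.68 and 42.88 in NTG. Its log2 difference of caPI3K from NTG was 1.29 ± 0.448 (SE, limma adjusted p = 0.571), while a further probe set, with overlapping groups, gave 0.18. In dnPI3K against NTG the log2 difference of Rrm1 was 0.99 (limma adjusted p = 0.336), with overlapping groups. All NTG values of Rrm1 lay just above the floor. Over the alternatives the difference of caPI3K from NTG ran from 0.05 to 1.41 for Rrm1 and from 0.27 to 1.19 for Rfc4. When single arrays were left out, the lowest differences were 1.13 for Rrm1 and 0.90 for Rfc4.

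Pole4, Rfc2 and Rfc5 are also among the lowest p of a comparison. Pole4, a small subunit of polymerase epsilon, read 334, 387.2 and 292.3 in caPI3K and 250, 286 and 281.9 in NTG (log2 difference 0.30, limma adjusted p = 0.786), without overlap. Rfc2 and Rfc5, further clamp loader subunits, had log2 differences of -0.32 (limma adjusted p = 0.352) and -1.02 (limma adjusted p = 0.335) in caPI3K against dnPI3K. Rfc2 lay below NTG in all caPI3K hearts, with a log2 difference of -0.20, and Rfc5 differed from NTG by -0.52 in caPI3K and 0.50 in dnPI3K with overlapping groups. For Rfc5 a further probe set gave 0.20, so its sign was not shared.

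Aurora kinase A (Aurka), which builds the spindle poles, was above the floor on 5 arrays, all from transgenic hearts. It read 76.94, 52.11 and 96.31 in caPI3K, 12.76, 59.3 and 52.95 in dnPI3K and 8.222, 18.58 and 8.944 in NTG. All NTG hearts lay below the floor and all caPI3K hearts above it. Aurka met the rule of 3 arrays only through the groups in which it is high, so a difference from NTG follows from its being tested. With NTG set to the floor, the fitted log2 difference of caPI3K was 1.04 ± 0.304 (SE, interval 0.37 to 1.71, limma adjusted p = 0.479). Over the alternatives the limma adjusted p ran from 0.328 to 0.684.

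Mki67, the proliferation antigen Ki-67, read 226.8, 180.1 and 228.5 in caPI3K, 253.5, 190 and 182.6 in dnPI3K and 249.3, 222.3 and 216.9 in NTG. The groups overlapped, with log2 differences of -0.12 (interval -0.62 to 0.38) in caPI3K and -0.15 (interval -0.65 to 0.35) in dnPI3K. A further Mki67 probe set lay on the floor on 6 of 9 arrays. With overlapping groups, it gave log2 differences of -0.32 in caPI3K and -0.46 in dnPI3K against NTG. Plk1, a kinase of mitotic entry and exit, gave log2 differences of -0.37, 1.13 and -0.42 with its 3 probe sets in caPI3K against NTG, so its direction is not settled here. Cdc25c, a phosphatase that activates Cdk1, had log2 differences of -0.79 (limma adjusted p = 0.783) in caPI3K and -0.93 (limma adjusted p = 0.381) in dnPI3K against NTG. Bub1, a spindle checkpoint kinase, was on the floor on 6 of 9 arrays. As a group, the 13 tested mitotic genes had medians of -0.08 in caPI3K and -0.04 in dnPI3K against NTG.

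A set of 7 kinases carry a Cdk name and were listed apart from the G1 and mitotic kinases. The set includes kinases with a role in transcription (Cdk7, Cdk8, Cdk9) or in differentiated cells (Cdk5), and some may also act in the cycle. None passed. Cdk18 had the lowest p in dnPI3K against NTG, with 593.3, 776.6 and 718.6 against 424.4, 533.8 and 573.3 (log2 difference 0.45, limma adjusted p = 0.217). Cdk16 had the lowest p in caPI3K against NTG, with 1089, 1006 and 1118 against 1049, 1638 and 1313 (log2 difference -0.29, limma adjusted p = 0.742). Cdk5, which works mainly in nerve cells, had a log2 difference of 0.25 (limma adjusted p = 0.806) in the same comparison.

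Counts of members whose 3 hearts of a group all lay beyond the 3 of the other were set against the same counts over all probe sets. Between caPI3K and NTG, 4 members were higher (6.15%, beside 6.32% of all probe sets) and 2 lower (3.08%, beside 5.37%). Between dnPI3K and NTG, 10 were higher (15.4%, beside 9.75%) and 4 lower (6.15%, beside 8.97%). In caPI3K against dnPI3K, 4 were higher (6.15%, beside 11.2%) and 9 lower (13.8%, beside 12.1%). The 10 higher in dnPI3K than in NTG were Rbl2, Ccnd1, Cdk18, Cdk5, Cdk8, Pola1, Pola2, Pold2, Rrm2 and Ccna2, which include 4 of the polymerase and nucleotide group.

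Where a gene has a further probe set that could be tested, the sign of the log2 difference was the same in 15 of 20 pairs in caPI3K against NTG, in 14 in dnPI3K against NTG and in 11 in caPI3K against dnPI3K. These pairs cover 19 genes. Between the 2800 and 3100 animal number series, 34 of 65 members had the same sign in caPI3K against NTG. The direction of a small difference in a single member is therefore not settled by these arrays.

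The medians by promoter letters are a description, and their differences were not tested. For the E2F letters, the median log2 difference in caPI3K against NTG was -0.07 over 12 genes with a match and -0.01 over 43 without. In dnPI3K against NTG the medians were -0.03 and 0.06, and in caPI3K against dnPI3K -0.02 and 0.00. For the CHR letters, with 13 genes that have a match and 42 without, the medians were -0.01 and -0.03 in caPI3K against NTG. They were -0.15 and 0.08 in dnPI3K against NTG and 0.17 and -0.04 in caPI3K against dnPI3K, where 9 of 13 genes with a match and 18 of 42 without lay above 0. For the CCAAT letters, with 33 and 22 genes, the medians were -0.05 and 0.04, -0.02 and 0.11, and -0.01 and 0.01 in the same order of comparisons. Of the shown promoters, those of Pola1, Mcm5 and Cdk1 belong to genes with log2 differences of 0.33, -0.06 and 0.60 in caPI3K against NTG and 0.78, -0.14 and -0.10 in dnPI3K against NTG. Promoters of Ccnd1, Ccnd2 and Ccna2 were not used here.

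Other genes of the cycle were read from lists of pathway genes that exclude the members, each gene by its brightest probe set. Under the settings described, none of these passed in any comparison. A further probe set of Ung, on the list of other S phase genes, passed in dnPI3K against NTG and in caPI3K against dnPI3K. Of 8 CDK inhibitors, 6 were tested. Cdkn1a, the p21 inhibitor that is a target of p53, read 345.8, 367.5 and 286.6 in caPI3K, 372.5, 343.6 and 313.2 in dnPI3K and 318.5, 140.7 and 183.6 in NTG. It overlapped with NTG in both, with log2 differences of 0.72 (limma adjusted p = 0.652) and 0.76 (limma adjusted p = 0.226). With the mean over the probe sets of the gene these were 0.39 and 0.15. Cdkn1b, the p27 inhibitor, was near the floor, with a log2 difference of 0.65 in dnPI3K against NTG (limma adjusted p = 0.316).

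Of 35 other mitotic genes, 33 were tested, and 22 had a log2 difference above 0 in caPI3K against NTG, with a median of 0.09. Anln, anillin, a scaffold of the cleavage furrow, read 89.43, 81.71 and 89.7 in caPI3K, 69.32, 41.22 and 20.54 in dnPI3K and 29.65, 41.32 and 9.456 in NTG. The caPI3K hearts lay above all others, while 2 NTG hearts were below the floor. The log2 difference from NTG was 1.22 ± 0.291 (SE, limma adjusted p = 0.304). Ube2c, the ubiquitin-conjugating enzyme of the anaphase-promoting complex, read 207.8, 191.9 and 157.2 in caPI3K, 147.8, 204.2 and 114 in dnPI3K and 27.5, 42.31 and 141.7 in NTG. Its log2 difference was 1.63 ± 0.480 (SE, limma adjusted p = 0.481) in caPI3K and 1.34 (limma adjusted p = 0.217) in dnPI3K. Without NTG replicate 3 the limma adjusted p in dnPI3K was 0.02, and over the alternatives it ran from 0.02 to 0.516, with log2 differences from 0.31 to 1.97.

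Of 21 other S phase genes, 19 were tested, with medians of 0.06 in caPI3K and -0.01 in dnPI3K against NTG. Dut, which keeps uracil out of DNA, had a log2 difference of -1.36 in caPI3K against dnPI3K (limma adjusted p = 0.201), with 94.18, 23.25 and 53.09 against 126.4, 191 and 122.6. Top1, topoisomerase I, had 0.35 in caPI3K against NTG (limma adjusted p = 0.705). Of 16 growth factor response genes, 15 were tested. Jund, a subunit of the AP-1 transcription factor, had a log2 difference of 0.38 (limma adjusted p = 0.127) in caPI3K against dnPI3K (0.0149 without NTG replicate 3, and 0.0149 to 0.309 over the alternatives), and Atf3, a stress-induced factor, had 0.55 in dnPI3K against NTG (limma adjusted p = 0.329).

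All 13 genes of the p53 and DNA damage response list were tested. Sesn1, sestrin 1, which restrains growth signalling through mTOR, came closest to the threshold in caPI3K against dnPI3K. It read 2279, 2656 and 2742 in caPI3K, 3656, 3209 and 3297 in dnPI3K and 3083, 3449 and 3109 in NTG. The caPI3K hearts lay below all others, with a log2 difference of -0.41 ± 0.0982 (SE, limma adjusted p = 0.0522) from dnPI3K and -0.33 (limma adjusted p = 0.484) from NTG. Against dnPI3K it passed in 6 of 21 alternatives, with limma adjusted p from 0.0391 to 0.199. Ccng1, cyclin G1, a p53 target despite its cyclin name, had a log2 difference of 0.49 (limma adjusted p = 0.107) in caPI3K against dnPI3K.

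Cells of the ventricle that can divide were followed by marker genes. Summed intensities of 10 macrophage and leukocyte markers were 4403 to 4797 in caPI3K, 4107 to 4973 in dnPI3K and 3635 to 5803 in NTG. Sums of 11 fibroblast markers were 35010 to 39100, 33430 to 38740 and 33920 to 38010 in the same order, and no marker of either list lay below the floor on all 9 arrays. These ranges overlapped. Of the genes in both lists, each by its brightest probe set, Col1a1, a fibrillar collagen of fibroblasts, was the single one to pass in a pairwise comparison, with a higher level in caPI3K than in dnPI3K (limma adjusted p = 0.018). Further probe sets of Col1a1 and of Col3a1, also on the fibroblast list, passed in dnPI3K against NTG and in caPI3K against dnPI3K.

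Sums of 10 endothelial markers were 10220 to 12070 in caPI3K, 12510 to 12920 in dnPI3K and 11120 to 12970 in NTG, so caPI3K and dnPI3K did not overlap. Sums of 6 smooth muscle markers were 2956 to 3463, 4813 to 5845 and 3576 to 4122, with Acta2 (limma adjusted p = 0.0176) higher in dnPI3K than in NTG and Acta2 and Myh11 lower in caPI3K than in dnPI3K. Sums of 3 atrial markers were 974.2 to 9907, 101.3 to 270 and 565.3 to 14180, and Myl7 and Myl4 passed as lower in dnPI3K than in NTG. The remaining atrial marker, Sln, went the other way. Its log2 difference was 0.74, with all dnPI3K hearts above all NTG hearts, and it did not pass. Sums of 9 skeletal muscle markers were 13920 to 20470, 2609 to 3257 and 7389 to 10300, and Myl1 and Casq1 passed as lower in dnPI3K than in both NTG and caPI3K. Nppa, of the cardiomyocyte list, passed as lower in caPI3K than in dnPI3K (limma adjusted p = 0.0282). Of the 9 genes of that list, Nppa included, 4 had a log2 difference above 0 and 5 below, with a median of -0.05. The endothelial, smooth muscle, atrial and skeletal muscle sums did not overlap between caPI3K and dnPI3K. The smooth muscle and skeletal muscle sums also did not overlap between NTG and either transgenic group. In caPI3K against NTG, 3 of 7 tested skeletal muscle markers had a log2 difference above 0 and 4 below, with a median of -0.05. Most of them thus did not share the higher sum. Atrial sums were lower in every dnPI3K heart than in any NTG heart. Among members, caPI3K against dnPI3K had 9 lower without overlap (13.8%, beside 12.1% of all probe sets) and 4 higher (6.15%, beside 11.2%). The part of the marker differences in those of members was not tested.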

How the data were processed

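The deposited table gives 1 intensity per probe set and array on a linear scale. The authors had scaled the arrays to a common level, since the 2% trimmed mean is 500.4 on each, as read from the values. The sources used here do not state how the intensities were computed. Per the labels, the scanner's photomultiplier was set to 10%.

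Intensities of 12488 probe sets were quantile normalized, values under the 20th percentile were set to it, and log2 was taken. The 66 control probe sets were left out of the tests, and a probe set was tested if above the floor on at least 3 of 9 arrays. limma 3.58.1 in R 4.3.3 fitted all 9 arrays with group as the single term (lmFit, eBayes with an intensity trend), with Benjamini-Hochberg adjustment over 10645 probe sets. The procedure was tested on simulated data. Symbols are those of the platform annotation, all 71 of which were found among RefSeq symbols, and 1 probe set with several symbols was left out. Titles carry 1 animal number each, and replicates were numbered in order of deposition and pair no animals. Values and SDs are normalized intensities before the floor.

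Named genes are the members with an adjusted p under 0.05 in a comparison, the 10 of smallest p in each, a fixed set of division markers, and 2 genes of smallest p per pathway list. Members and lists were chosen with earlier results of these data known. The number of arrays limits the precision.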

Additional observations from a re-analysis of the deposited data

How the results depend on the processing

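Settings were changed singly in 22 alternatives, of which 9 left out 1 array each. In caPI3K against NTG, 0 members passed in all 22, with 1 to 6 at an unadjusted p under 0.05 in limma, while the count over all probe sets ran from 0 to 20 against 9. In dnPI3K against NTG, 1 member passed with arrays scaled to the same median (Ccnd1, adjusted p = 0.0465), with the floor at the 40th percentile (Pola1, 0.0435) and with the mean over the probe sets of a gene (Ccnd1, 0.0285). In caPI3K against dnPI3K, 1 member passed with the floor at the 40th percentile (Ccnd2, 0.04), robust moderation (Ccnd2, 0.04998), array weights (Ccnd2, 0.0309), the mean over the probe sets of a gene (Ccnd1, 0.0443) and a fit of only the 2 groups compared (Pold1, 0.0193). The test across the 3 groups called 1 member with array weights (Ccnd2, 0.0395) and with the mean over the probe sets of a gene (Ccnd1, 0.0339). The cause of these gains was not tested.

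Leaving out 1 array gave 0 to 1 members in dnPI3K against NTG, 0 to 1 in caPI3K against dnPI3K and 0 to 1 across the 3 groups. The arrays that brought a call were NTG replicate 1 (Ccna2) and NTG replicate 3 (Ccnd1) in dnPI3K against NTG, caPI3K replicate 1 (Ccnd2) and NTG replicate 2 (Pold1) in caPI3K against dnPI3K, and caPI3K replicate 1 (Ccnd2), NTG replicate 2 (Pold1) and NTG replicate 3 (Ccnd1) across the 3 groups. Over all settings, calls among all probe sets ran from 82 to 285 against 232 in dnPI3K against NTG, from 134 to 527 against 345 in caPI3K against dnPI3K and from 116 to 417 against 280 across the 3 groups. Member medians ran from -0.06 to 0.06, from 0.01 to 0.14 and from -0.05 to 0.01 in the 3 pairwise comparisons. No paired analysis was possible because replicate numbers follow the order of deposition. The animal number series could enter as a block for caPI3K against NTG only, and the test across the 3 groups was not run for that setting or for the fits of 2 groups. Of the values of named genes under the alternatives, 23 passed the threshold, 39 moved by more than the spread between replicates and 2746 did neither. The passes outside the members were Sesn1 in caPI3K against dnPI3K (6 settings), Jund in that comparison (2) and in dnPI3K against NTG (1), Ccng1 in caPI3K against dnPI3K (1) and Ube2c in dnPI3K against NTG (1). Genes near the floor, such as Aurka, Cdk1 and Bub1, are limited by signal over background.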
